A study of Homo sapiens with 6 samples.

Results

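CXCL1, CXCL2, CXCL3, CXCL5, CXCL8, CCL2 and CCL20 are secreted chemokines whose genes are known targets of the transcription factor NF-kB, and their RNA was compared between A549 cells transfected with a CELF6 plasmid and cells given an empty plasmid. They were taken by symbol from the deposited tables, where each of the 7 symbols had 1 row among 29889 genes with at least 1 read. A549 is a human lung adenocarcinoma line that grows as epithelial cells. The CELF6-OE group received CELF6 in the pIRES-hrGFP-1a plasmid, the Control group received that plasmid without CELF6, and cells of each group were harvested 48 h after Lipofectamine transfection. Both groups therefore share the transfection and the plasmid backbone, the cultures are transfected pools rather than selected clones, and untransfected cells are not part of this comparison. The study prepared 3 biological replicates per group.

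Chemokines are small proteins that draw leukocytes along a gradient. CXCL1, CXCL2, CXCL3 and CXCL5 act mainly on the receptor CXCR2, CXCL8 (interleukin 8) acts on CXCR1 and CXCR2, and these ligands recruit neutrophils. CCL2 acts on CCR2 and recruits monocytes, and CCL20 acts on CCR6, a receptor of dendritic cells, B cells and Th17 cells. Airway epithelium makes all of them when tumour necrosis factor, interleukin 1 or interleukin 17 releases NF-kB from its inhibitor in the cytoplasm. NF-kB dimers then bind short GC-flanked sites, the kB sites, near the start of these genes. Many chemokine mRNAs also carry repeats of AUUUA in the 3′ UTR, which mark them for rapid decay.

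In GENCODE v44 on GRCh38, 5 of the 7 genes lie within 359 kb of chromosome 4, in the order CXCL8 (chr4:73740519-73743716, plus strand), CXCL1 (chr4:73869393-73871308, plus strand), CXCL5 (chr4:73995642-73998677, minus strand), CXCL3 (chr4:74036589-74038807, minus strand) and CXCL2 (chr4:74097040-74099196, minus strand). CCL2 lies on chromosome 17 (chr17:34255274-34257208, plus strand) and CCL20 on chromosome 2 (chr2:227805739-227817564, plus strand). RefSeq promoter windows on GRCh38.p14, from 250 bases before to 50 bases after the start of the gene, matched 6 of the 7 genes, all except CCL2. The first motif searched, on both strands, was GGAATTTCC, a kB site with a fixed centre. It was present in 5 of the 6 windows, against 0.461% of 35116 windows of all genes. The genes are known NF-kB targets, so a kB site in them was likely beforehand. The windows of CXCL1, CXCL2 and CXCL3 are 83.5% to 87.0% identical, so the 5 matches are not independent. CCL20 was the window that lacked these letters, and it held a site of another spelling at a similar distance from the start. The 40 bases around these sites are shown because they lie at a similar distance from the start and because CCL20 is spelled differently there. Capitals mark matches to GGAATTTCC or to a looser kB motif (GGG, any 5 bases, then CC), which overlap each other.
CXCL1: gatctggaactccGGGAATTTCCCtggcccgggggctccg
CXCL2: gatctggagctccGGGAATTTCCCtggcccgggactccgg
CXCL3: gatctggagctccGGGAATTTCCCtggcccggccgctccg
CXCL5: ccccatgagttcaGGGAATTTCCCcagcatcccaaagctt
CXCL8: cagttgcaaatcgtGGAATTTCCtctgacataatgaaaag
CCL20: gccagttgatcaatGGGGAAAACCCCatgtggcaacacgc

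These stretches lie at chr4:73869301-73869340 (CXCL1, plus strand), chr4:74099247-74099286 (CXCL2, minus strand), chr4:74038742-74038781 (CXCL3, minus strand), chr4:73998742-73998781 (CXCL5, minus strand), chr4:73740464-73740503 (CXCL8, plus strand) and chr2:227813747-227813786 (CCL20, plus strand). The match to GGAATTTCC began at -91 from the start in CXCL8, at -90 in CXCL5, -78 in CXCL1, -78 in CXCL3 and -77 in CXCL2. In CCL20 the first match to the looser motif near this place began at -81. The looser motif was found in all 6 windows but also in 58.7% of all windows, so most genes have it. A match is a run of letters, and whether NF-kB occupied it in these cells was not measured.

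The whole windows of CXCL8, which has the first spelling, and CCL20, which lacks it, are given with matches to either kB motif in capitals. Whether the spelling goes with a change in RNA was not tested. The windows lie at chr4:73740319-73740618 and chr2:227813592-227813891 on the plus strand. The RefSeq start of CCL20 lies within the longer gene span that GENCODE gives.
CXCL8: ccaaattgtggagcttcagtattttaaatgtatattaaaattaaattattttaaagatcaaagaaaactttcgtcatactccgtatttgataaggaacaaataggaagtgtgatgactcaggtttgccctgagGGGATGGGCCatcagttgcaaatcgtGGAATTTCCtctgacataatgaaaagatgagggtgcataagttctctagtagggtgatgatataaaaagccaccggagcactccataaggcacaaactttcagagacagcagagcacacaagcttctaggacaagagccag
CCL20: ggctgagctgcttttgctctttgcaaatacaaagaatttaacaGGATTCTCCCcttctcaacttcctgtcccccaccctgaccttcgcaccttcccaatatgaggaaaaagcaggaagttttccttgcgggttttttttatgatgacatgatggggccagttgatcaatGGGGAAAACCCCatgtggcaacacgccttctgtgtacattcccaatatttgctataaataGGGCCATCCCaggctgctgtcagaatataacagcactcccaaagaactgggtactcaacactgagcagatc

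An AP-1 motif, TGANTCA, was present in CXCL8 alone, at -137, and in 7.71% of all windows. A TATA motif, TATAAA, was present in CXCL8 at -31 and in CCL20 at -29, and in 11.5% of all windows on either strand. The windows of CXCL1, CXCL2 and CXCL3 were 83.5% to 87.0% identical to each other over their aligned bases. CXCL1 and CXCL2 transcripts were 90.9% identical, CXCL1 and CXCL3 82.2% and CXCL2 and CXCL3 83.6%. No stretch of 150 bases, the read length given in the labels, was identical in any pair of them. With up to 4 mismatches, the number the alignment allowed, 3.32% of the 150-base windows of CXCL1 had a counterpart in CXCL2 and 3.35% of those of CXCL3 had one in CXCL2. Of the windows of CXCL2, 3.52% had one in CXCL1 and 3.21% had one in CXCL3. Few reads could thus have been assigned to the wrong copy, and the counts of these 3 genes carry that small uncertainty.

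The 3′ UTRs were searched on the sense strand for ATTTA, the DNA spelling of AUUUA, in the Ensembl canonical transcripts of GENCODE v44. CXCL2 held 10 copies in 716 bases, and 0.0914% of 2187 annotated 3′ UTRs of like length (at least 0.8 times as long, and longer by at most the same factor) held as many. CXCL3 held 7 copies in 673 bases, CXCL1 held 6 in 772, CXCL8 held 9 in 1252 and CXCL5 held 11 in 1995. CCL20 held 3 copies in 473 bases, reached by 11.4% of 3′ UTRs of like length, and CCL2 held 1 copy in 376 bases, reached by 43.4%. The stretch richest in ATTTA is shown for CXCL2 and CCL2, the genes reached by the smallest and the largest share, and for CXCL8 and CCL20, whose promoters were given, with every ATTTA in capitals.
CXCL2: ttctATTTATTTATTTATTTATTTAtttgt
CXCL8: cctATTTAttATTTAtgtATTTATTTAagc
CCL20: gtattttatgttATTTAtagctgtaggttt
CCL2: atgttaattcttATTTAagttattgatgtt

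They lie at chr4:74097585-74097614 on the minus strand, chr4:73743111-73743140 on the plus strand, chr2:227817283-227817312 on the plus strand and chr17:34256951-34256980 on the plus strand. The GU-rich element bound by CELF1, a relative of CELF6, was searched in its 11-base form and was absent from the 3′ UTRs of all 7 genes and present in 1.93% of 19228 3′ UTRs searched. No match says only that these letters are not there.

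The total count on genes per library lay between 33748328 and 35413404 for CELF6-OE and between 36422617 and 37920700 for Control. The count of CELF6, the gene placed on the plasmid, was 18646, 20789 and 11571 across CELF6-OE replicates 1 to 3 and 0 for each Control library, so the libraries matched their labels, although counts from the plasmid and from the chromosome cannot be told apart. The epithelial markers KRT8 and KRT18 had mean FPKM of 1864 and 1862 in CELF6-OE and 2530 and 2334 in Control, and their log2 fold changes were -0.47 and -0.36. Over the list of 6 epithelial markers, the summed FPKM ranged over 5041 to 5793 for CELF6-OE against 6177 to 7029 for Control. CDH1, which encodes E-cadherin, had a log2 fold change of -1.62, KRT7 had -0.09, KRT19 had -0.22 and EPCAM had -0.41. The mean FPKM of EPCAM was 1.03 in CELF6-OE and 1.34 in Control. The part of these markers in the results on the chemokines was not tested. The summed FPKM of 12 leukocyte markers, 9 of which had any count, ranged over 3.76 to 5.03 for CELF6-OE against 3.71 to 4.47 for Control, and 1 of the 2 that were tested, ITGAM, fell by 0.73 on the log2 scale. PTPRC, which encodes the common leukocyte antigen CD45, held at most 2 counts in any library. Fibroblast markers summed to at most 0.44 FPKM and endothelial markers to at most 0.07.

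All 7 chemokines were expressed in every library. FPKM, the fragments mapped per kilobase of transcript and scaled to library depth, allows levels to be compared between genes. In Control, the mean FPKM descended from CXCL5 at 87.9 ± 14.5 (SD, n = 3) to CXCL1 at 79.9 ± 3.65, CCL2 at 39.3 ± 2.59, CXCL2 at 32.8 ± 2.48, CXCL3 at 23.6 ± 2.80, CCL20 at 22.9 ± 3.68 and CXCL8 at 16.6 ± 2.92. The library ranges of CXCL5 and CXCL1 overlapped, as did those of CXCL3 and CCL20 and those of CCL20 and CXCL8, so these neighbours were not separated by their spread. In CELF6-OE the order was CXCL1 at 86.9 ± 6.74, CXCL5 at 74.0 ± 10.4, CCL2 at 48.1 ± 6.53, CXCL2 at 32.1 ± 4.50, CXCL3 at 24.1 ± 4.24, CXCL8 at 14.4 ± 1.38 and CCL20 at 7.92 ± 0.822. Here only CXCL1 and CXCL5 overlapped, and CCL20 had become the lowest of the 7 in every library.

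**Figure D1:**
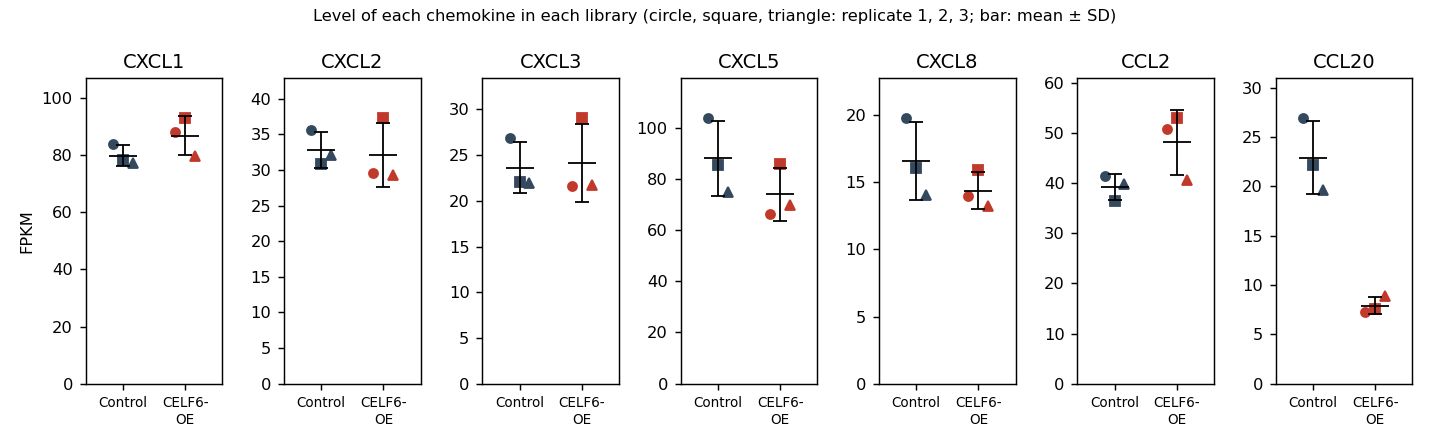
FPKM of each chemokine (vertical axis, starting at 0 and scaled per gene) in the 3 Control and 3 CELF6-OE libraries, with the mean and SD of each group as bars and replicates 1, 2 and 3 as circles, squares and triangles. The groups separate for CCL20 (7.30 to 8.85 in CELF6-OE, 19.7 to 26.9 in Control) and overlap for the other 6 genes.

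To ask whether CELF6 overexpression altered these genes, edgeR's quasi-likelihood test was run on the counts of the 15847 genes that passed a filter on low counts, and all 7 chemokines passed it. Genes whose p was under 0.01 with at least a 1.5-fold difference were called, and an adjusted p under 0.05 (Benjamini-Hochberg over all genes tested) was read beside it. By the first rule, 1 of the 7 chemokines was called lower and 0 were called higher in CELF6-OE, where 5.91% and 1.36% of all genes tested were called lower and higher (7.27% in either direction). By the adjusted p alone 1 was lower and 0 were higher, the same gene, against 11.5% lower, 6.47% higher and 18.0% in either direction of all genes tested. At an unadjusted p under 0.05 there were 2 lower and 1 higher, against 18.0% lower, 14.8% higher and 32.7% in either direction of all genes tested. The median log2 fold change was -0.06 over the 7 genes and 0.011 over all genes tested, so as a list they lay close to the bulk of the transcriptome.

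CCL20 was the gene that changed. Its FPKM was 26.9, 22.2 and 19.7 in Control replicates 1 to 3 and 7.30, 7.60 and 8.85 in CELF6-OE replicates 1 to 3, from 858, 736 and 653 counts against 223, 237 and 263. The highest CELF6-OE library was thus less abundant in CCL20 than the lowest Control library. Its level in CELF6-OE was 2.95-fold lower. The log2 fold change was -1.56 (standard error 0.12, 95% confidence interval -1.82 to -1.30), with an adjusted p of 1.77e-05 in edgeR's quasi-likelihood test. Over the alternative settings tried, the log2 fold change of CCL20 ranged from -1.65 to -1.42 and its adjusted p was at most 0.000405. The groups did not overlap in FPKM, which was so for 17.9% of all genes tested in the same direction and 20.1% in the other. In a two-sided exact permutation test of the FPKM p was 0.1, and 2 groups of 3 libraries can give none smaller. In these bulk samples, fewer cells that make CCL20 and less CCL20 RNA per cell cannot be told apart. Replicate 3 of CELF6-OE had the lowest CELF6 level, an FPKM of 172 against 270.1 and 295 in replicates 1 and 2, and the highest CCL20 level of that group. Of all genes tested, 31.2% also had their highest CELF6-OE value in that library. Between replicates 1 and 2, the one with more CELF6 had slightly more CCL20. Whether the 2 levels are related was not tested.

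CXCL5 and CXCL8 were lower on average in CELF6-OE, but neither passed the test. The neutrophil attractant CXCL5, the gene with the most counts of the 7, had an FPKM of 104, 85.2 and 74.9 in Control and 66.4, 85.8 and 69.7 in CELF6-OE. CELF6-OE replicate 2 lay between Control replicates 1 and 2, so the groups overlapped. The ratio of CELF6-OE to Control was 0.826 (95% confidence interval 0.700 to 0.974) and the adjusted p of CXCL5 was 0.102 in edgeR's quasi-likelihood test. CXCL8, the best known neutrophil chemokine, had an FPKM of 19.8, 16.03 and 14.02 in Control and 14, 15.9 and 13.2 in CELF6-OE, and the lowest Control library overlapped CELF6-OE. Its ratio was 0.850 (0.722 to 1.001) with an adjusted p of 0.155 in edgeR's quasi-likelihood test. This interval reached no change at its upper end. Both results turned on single libraries. Without Control replicate 1 the log2 fold change was -0.175 for CXCL5 and -0.123 for CXCL8, with adjusted p of 0.168 and 0.312 from edgeR. Without Control replicate 3 the log2 fold change was -0.36 for CXCL5 and -0.33 for CXCL8, with adjusted p of 0.0201 and 0.0247 from edgeR, and without CELF6-OE replicate 2 CXCL5 had -0.39 and an adjusted p of 0.0482. CXCL5 also passed without a filter on low counts (adjusted p from edgeR 0.00158). In that setting the spread of single genes did not enter p.

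CCL2, the monocyte attractant, was higher on average. Its FPKM was 41.5, 36.4 and 39.9 in Control and 50.7, 52.9 and 40.7 in CELF6-OE. Replicates 1 and 2 of CELF6-OE lay above every Control library and replicate 3 lay within the Control range. The ratio was 1.20 (95% confidence interval 1.04 to 1.39), a log2 fold change of 0.26 (standard error 0.096) with an adjusted p of 0.0816 in edgeR's quasi-likelihood test. Without CELF6-OE replicate 3 the log2 fold change of CCL2 was 0.37 with an adjusted p of 0.0156 from edgeR, without Control replicate 3 it was 0.295 with 0.0494, and without a filter on low counts it was 0.26 with 0.0215. With no filter the spread of single genes did not enter p. The change of CCL2 was smaller without CELF6-OE replicate 2 (0.194, adjusted p 0.302 from edgeR), Control replicate 2 (0.217, 0.277) or CELF6-OE replicate 1 (0.219, 0.253). The direction of CCL2 was the reverse of that of CCL20 under all alternatives run.

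CXCL1, CXCL2 and CXCL3, which encode the GRO alpha, beta and gamma chemokines, stayed closest to their Control levels. CXCL1 had an FPKM of 84.0, 78.2 and 77.3 in Control and 88.1, 93.0 and 79.6 in CELF6-OE, a ratio of 1.07 (95% confidence interval 0.961 to 1.18) with an adjusted p of 0.374 in edgeR's quasi-likelihood test. The spread of CXCL1 was the smallest of the 7 genes, with a standard error of 0.068 on the log2 scale. CXCL2 had an FPKM of 35.6, 30.8 and 32.1 in Control and 29.6, 37.3 and 29.4 in CELF6-OE, a ratio of 0.958 (0.831 to 1.10). CXCL3 had an FPKM of 26.8, 22.04 and 21.96 in Control and 21.6, 29.0 and 21.8 in CELF6-OE, a ratio of 1.003 (0.842 to 1.19). In each of these 3 genes the groups overlapped, and all 3 intervals included a ratio of 1 and left out a 1.5-fold change in either direction. The sign of the CXCL3 change was not fixed, and it turned negative in 7 of the 18 alternatives, at most by -0.15 without CELF6-OE replicate 2.

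Within a group, the members often had their highest level in the same library. In FPKM, Control replicate 1 was the highest of the 3 libraries for all 7 chemokines, and 47.2% of all genes tested also had their highest Control value there. On the TMM scale this held for 6 of the 7, since CCL2 was then slightly higher in Control replicate 3. In CELF6-OE, replicate 2 was the highest for 6 of the 7, the exception being CCL20, and 39.8% of all genes tested had their highest value in that library. CCL20 followed CXCL5 and CXCL8 closely across the Control libraries and parted from them in CELF6-OE, where it was highest in replicate 3.

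**Figure D2:**
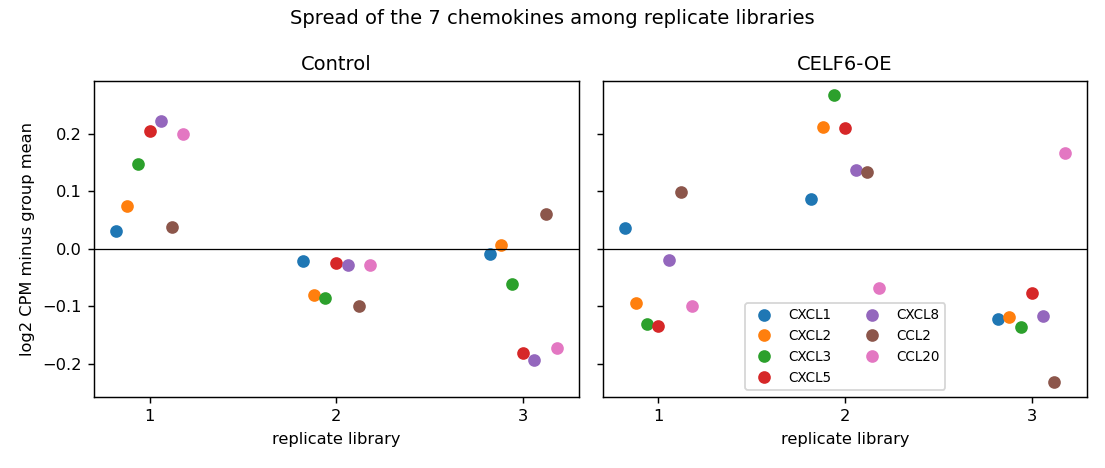
Deviation of each library's log2 CPM (counts scaled to library size with TMM) from the mean of its group (vertical axis) for the 3 replicate libraries (horizontal axis) of Control and CELF6-OE, with 1 color per chemokine. Control replicate 1 lies above the mean for all 7 genes, and CELF6-OE replicate 2 lies above it for 6 of 7, with CCL20 below.

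Because members of one library share its scaling, ratios between them were compared next. Counts of each gene were divided by those of CXCL8 in the same library, which removes any effect of library size. For each count of CXCL8 there were 0.572, 0.581 and 0.589 counts of CCL20 in the Control libraries, a nearly constant ratio, and 0.219, 0.201 and 0.281 in the CELF6-OE libraries. The log2 ratio of CCL20 to CXCL8 differed by -1.33 between the groups (SD 0.25 in CELF6-OE and 0.022 in Control, n = 3 each), and the groups did not overlap. The ratio of CXCL5 to CXCL8 was 6.64, 6.73 and 6.77 in Control and 6.01, 6.84 and 6.68 in CELF6-OE, a log2 difference of -0.047, with overlapping groups (two-sided exact permutation test, p = 0.8). The ratio of CCL2 to CXCL8 was 1.18, 1.27 and 1.59 in Control and 2.03, 1.87 and 1.72 in CELF6-OE without overlap, a log2 difference of 0.48, and that of CXCL1 to CXCL8 was 2.33, 2.67 and 3.02 against 3.44, 3.20 and 3.30, also without overlap, a log2 difference of 0.32. The differences of CXCL2 and CXCL3 were 0.16 and 0.22, with overlapping groups, and they turned to -0.16 and -0.095 when CXCL1 was the divisor. Against CXCL1 the difference of CCL2 was 0.17 and its groups overlapped, while CCL20 stayed apart with -1.65. The difference of CXCL5 against CXCL1 was -0.365 without overlap (two-sided exact permutation test, p = 0.1), so its overlap held for CXCL8 as the divisor. In the two-sided exact permutation test each of the 3 ratios to CXCL8 without overlap had p = 0.1, the smallest value possible, or 0.2 after adjustment over the 6 ratios, so this design could not pass a threshold of 0.05. How often the ratios of other genes to CXCL8 separate was not computed. In FPKM, 17.9% of all genes tested were lower without overlap and 20.1% higher. CXCL8 itself had a log2 fold change of -0.23, which enters each ratio to it.

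**Figure D3:**
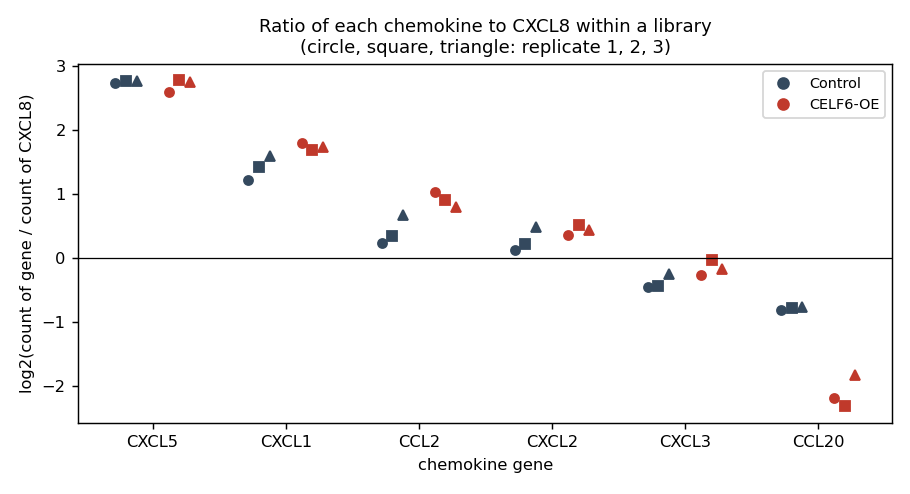
Log2 of the count of each chemokine over the count of CXCL8 in the same library (vertical axis) for 6 chemokines (horizontal axis), with Control in dark blue, CELF6-OE in red and replicates 1, 2 and 3 as circles, squares and triangles. The ratio of CCL20 drops from a mean of -0.784 in Control to -2.113 in CELF6-OE, and that of CXCL5 stays near 2.7 in each group.

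Genes with a profile like that of a member were looked up by the root mean square difference between log2 CPM profiles, each centred on its own mean over the 6 libraries, among 15699 tested genes with a mean of at least 10 counts. The closest profiles to CCL20 were those of GBP2, an interferon-induced guanylate binding protein, CACNA1I, a calcium channel subunit, and SLC2A12, a sugar transporter, at differences of 0.092, 0.097 and 0.10 against a median of 0.81 over all genes. Their log2 fold changes were -1.42, -1.53 and -1.50. No other chemokine of the 7 was near CCL20, the closest being CXCL5 at rank 2470. The profiles include the difference between the groups, so nearness to CCL20 largely restates its fold change. CXCL2 was the third closest gene to CXCL3 at 0.059, and CXCL3 the ninth closest to CXCL2. CXCL8 was the fifth closest gene to CXCL5, and CXCL5 the sixth closest to CXCL8, at 0.063. The genes nearest to CXCL8 were SOX9, IRAK4 and CLDN12, those nearest to CXCL5 were DENND4C, ARNTL2 and ZNF551, and those nearest to CXCL1 were SLC47A1, IPPK and CCDC88C. For CXCL2 they were RAD51L3-RFFL, GPATCH8 and SEC31B, for CXCL3, besides CXCL2, POU2F2 and ZNF776, and for CCL2 NOTCH2NL, GNL3L and SLC25A33.

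Other ligands of the family gave a different picture. The list named chemokines of the same receptors, which held CXCL6, PPBP, PF4, CCL7, CCL8 and CCL13, was barely expressed. Only PF4 passed the filter, at counts of 27, 18 and 15 for CELF6-OE against 22, 18 and 15 for Control (log2 fold change 0.20, adjusted p 0.694 in edgeR's quasi-likelihood test). PF4 is not an established ligand of CXCR1, CXCR2, CCR2 or CCR6, so no other chemokine of those receptors was tested. Of the interferon-induced chemokines CXCL9, CXCL10, CXCL11 and CCL5, which attract T cells, all 3 that were tested were called lower, where 5.91% of all genes tested were. Their log2 fold changes were -3.44 for CXCL10, -3.80 for CXCL11 and -3.81 for CCL5. CXCL9 had at most 3 counts in any library and was not tested. The FPKM of CCL5 went from a mean of 226 in Control, above every one of the 7 chemokines, to 16.5 in CELF6-OE. Among 17 other chemokines, 5 were tested and all 5 were called lower, where 5.91% of all genes tested were. They were CCL17 with a log2 fold change of -4.14, CCL3 with -3.28, CX3CL1 with -2.77, CXCL16 with -0.78 and CCL26 with -0.72. CCL17 had 95, 99 and 72 counts in Control and 5, 3 and 6 in CELF6-OE, and the filter admitted such genes through their Control counts, so the number tested does not speak for the whole list. With at least 10 counts required in every library 2 were called, with limma on log2(FPKM + 1) 3, and without a filter 8. CCL3 has near-identical copies between which its reads could have been divided.

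**Figure D4:**
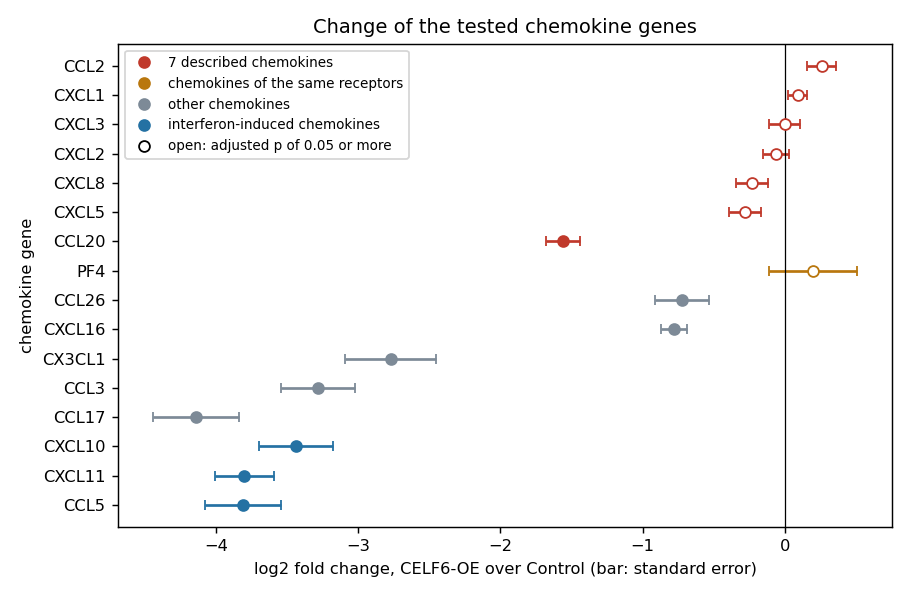
Log2 fold change of CELF6-OE over Control (horizontal axis, with the standard error as a bar) for the 16 chemokine genes that were tested (vertical axis), colored by list, with open symbols where the adjusted p was 0.05 or more. Except for CCL20 at -1.56, the 7 described chemokines lie between -0.28 and 0.26, and the interferon-induced chemokines lie between -3.81 and -3.44.

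The receptors of the 7 chemokines were almost silent in A549 cells. CXCR1, CXCR2, CCR2 and ACKR2 had at most 2 counts in any library, and CCR6 had no row in the count table. ACKR1, a decoy receptor that binds several of these chemokines without signaling, had 41, 25 and 30 counts in Control and 0, 1 and 2 in CELF6-OE, with an adjusted p of 0.00018 in edgeR's quasi-likelihood test. Its FPKM was at most 0.51 in any library. ACKR1 passed the filter on low counts through its Control libraries alone, and 0 receptors were called with at least 10 counts required in every library or with limma on log2(FPKM + 1).

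A list of 14 genes held the cytokines that induce the 7 genes, their receptors and IL1RN, which acts against induction. Of these 9 were tested, 2 were called lower and 0 higher, and 4 were lower by adjusted p. Of all genes tested, 5.91% were called lower and 11.5% were lower by adjusted p. TNFRSF1B, the second receptor of tumour necrosis factor, and IL1RN, the antagonist of the interleukin 1 receptor, were the 2 called, with log2 fold changes of -1.94 and -1.92. IL1RN had 4 counts in each CELF6-OE library against 14, 16 and 19 in Control and so passed the filter through Control, and 1 gene of the list was called with at least 10 counts required in every library or with limma on log2(FPKM + 1). TNFRSF1A, the main receptor, was named after its values were seen, and its FPKM was 157 in CELF6-OE and 154 in Control. IL17RC, a subunit of the interleukin 17 receptor, fell by 0.34 on the log2 scale (adjusted p 0.031 from edgeR's quasi-likelihood test). IL1R1, the interleukin 1 receptor, picked after its values were seen, had a log2 fold change of -0.44 (adjusted p 0.0362 in the same test). The inducers themselves were scarce. The counts of TNF were 8, 0 and 2 for CELF6-OE against 2, 10 and 9 for Control, and those of IL1B were 7, 12 and 7 against 9, 8 and 7, both also picked out after their values were seen.

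Among 13 genes for NF-kB subunits and the kinases that activate them, 0 were called in either direction by p and fold change, and 3 had an unadjusted p under 0.05, where 32.7% of all genes tested did. By adjusted p, edgeR's quasi-likelihood test found 2 lower, where 11.5% of all genes tested were. They were NFKB2, the precursor of the p52 subunit, with a log2 fold change of -0.47, and RIPK1, a kinase of the tumour necrosis factor receptor complex, with -0.27. RELB had -0.21 with an adjusted p of 0.1345 from edgeR. By p and fold change, DESeq2, limma-voom and the other alternatives called 0 of the 13 lower as well. The adjusted p of these genes was not compared between the alternatives. Of 11 inhibitors and feedback genes, 1 was called lower, where 5.91% of all genes tested were. It was TNFAIP3, which encodes the ubiquitin editing enzyme A20, with a log2 fold change of -0.76. By adjusted p 5 were lower, where 11.5% of all genes tested were. Among them were NFKBIA, the main inhibitor of NF-kB, with -0.42 and TNIP1, a partner of A20, with -0.37. NFKBIA, TNFAIP3 and TNIP1 are themselves induced by NF-kB. In the list of inhibitors and feedback genes 0 were called lower with limma on log2(FPKM + 1), and 2 without CELF6-OE replicate 2, Control replicate 2 or Control replicate 3. The medians of the 2 lists were -0.096 and -0.15.

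AP-1 and C/EBP factors bind beside NF-kB at several chemokine genes. Of 11 tested, 3 were called lower and 0 higher, where 5.91% and 1.36% of all genes tested were. The 3 were JUNB with a log2 fold change of -0.69, ATF3 with -0.60 and FOS with -0.78. With limma on log2(FPKM + 1) 1 was called lower, and 2 were with library size alone, with limma on log2(FPKM + 0.1) or without CELF6-OE replicate 1. By adjusted p, 5 were lower, including CEBPD with -0.45 and CEBPB with -0.34, and 1 was higher, FOSL1 with 0.56 (FOS, CEBPB and FOSL1 were picked after their values were seen). Of all genes tested, 11.5% were lower and 6.47% higher by adjusted p. Of 20 other NF-kB target genes, 18 were tested, and 9 were called lower and 0 higher, against 5.91% and 1.36% of all genes tested. The median log2 fold change of the tested genes was -0.64. VCAM1 and SAA2 were among those called and passed the filter through Control alone, so the count speaks only for genes that passed, and it was 7 with at least 10 counts required in every library and 6 with limma on log2(FPKM + 1). The 3 with the smallest p were C3, the central component of complement, with -1.14, TRAF1, a signaling adaptor, with -1.88, and SAA1, an acute phase protein whose copy SAA2 is nearly identical, with -2.62. Genes of the list that did not pass included LIF at -0.03, IL11 at 0.08 and TNFAIP2 at 0.09, picked after their values were seen.

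The last list held 11 genes for proteins that bind mRNAs and destabilize or stabilize them, not all of them through AUUUA repeats. Of 10 tested, 1 was called lower by p and fold change and 0 higher, where 5.91% and 1.36% of all genes tested were. It was ZFP36 (tristetraprolin), which destabilizes mRNAs with AUUUA repeats, with a log2 fold change of -0.67. Its FPKM was 25.5 ± 0.741 in Control and 16.4 ± 1.06 in CELF6-OE (SD, n = 3 each). ZC3H12A, the endonuclease regnase, fell by 0.39 on the log2 scale, and ELAVL1 (HuR), which stabilizes mRNAs with AUUUA repeats, rose by 0.28. Each passed by adjusted p in edgeR's quasi-likelihood test (0.00268 and 0.0148). KHSRP, which destabilizes mRNAs with AUUUA repeats, went the other way from ZFP36 and rose by 0.23 (adjusted p 0.0247 in the same test). ZFP36L2, a relative of ZFP36, fell by 0.24 (adjusted p 0.0466 in the same test). KHSRP and ZFP36L2 were picked after their values were seen. Over the list, 3 were lower and 2 higher by adjusted p, where 11.5% and 6.47% of all genes tested were.

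**Figure D5:**
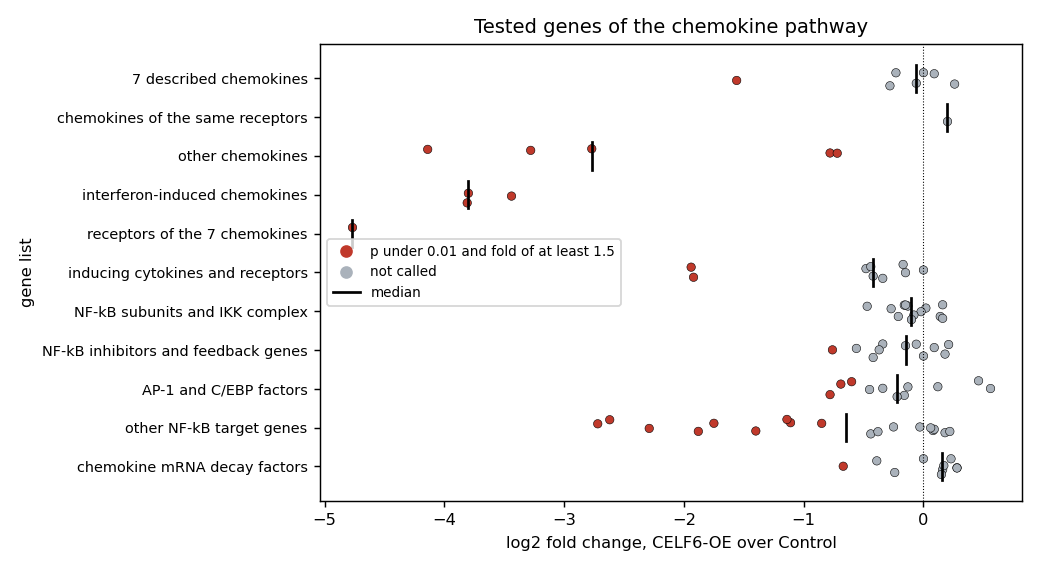
Log2 fold change of CELF6-OE over Control (horizontal axis) of each tested gene in the 7 chemokines and the 10 pathway lists (vertical axis), with called genes in red and the median of each list as a bar. The 13 genes for NF-kB subunits and kinases hold no red point, and 9 of 18 other NF-kB targets are red, all below 0.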

How the data were processed

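The members, lists and tests were chosen with earlier results of these data known. Polyadenylated RNA of 6 A549 libraries was sequenced with a stranded kit. Reads were trimmed by the authors (FASTX-Toolkit), and TopHat2 and GRCh38 are named in the submitters' processing notes. Only uniquely placed reads were counted. The annotation release, counting tool and strand setting are not given in the sources used here. The authors deposited whole-number counts without normalization and FPKM values.

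Counts of genes kept by filterByExpr (minimum count 10, 15847 of 29889 genes, 99.9% of counts) were TMM scaled and tested with edgeR 4.0.16 (R 4.3.3) by the quasi-likelihood test with a prior count of 0.125, fitted to the 2 groups without covariates. Without the filter the prior degrees of freedom were infinite (7.15 with it), so the spread of single genes would not enter p. Intervals are at 95%. Totals of 33748328 to 37920700 per library set the depth, and reads carry no stated molecular identifiers. Gene IDs matched GENCODE v44 for 97.1%. Named were the 7 genes, the 3 list genes with the smallest p, called chemokines and receptors, and the 3 nearest profiles. Alternatives covered scaling, filters, DESeq2 1.42.0, limma 3.58.1, FPKM pseudocounts, a replicate block and left-out libraries. The procedure was tested on simulated data. Splicing was not analysed here.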

Additional observations from a re-analysis of the deposited data

How the results depend on the processing

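CCL20 kept its direction and its call in all 18 alternatives. CXCL1 and CXCL2 kept their directions and passed in none. CXCL3 turned negative without a filter (-0.0031), with at least 10 counts in every library (-0.0046), with limma-voom (-0.0033) and with the replicate block (-0.0040), and it ranged from -0.145 to 0.0735 when single libraries were left out. Without a filter CXCL5 (-0.28) and CCL2 (0.26) passed an adjusted p of 0.05 in edgeR, and 3 of the 7 chemokines then did, but the spread of single genes did not enter p there. When single libraries were left out, the log2 fold change ranged from -0.392 to -0.175 for CXCL5, from -0.325 to -0.123 for CXCL8 and from 0.194 to 0.366 for CCL2, and 1 to 4 chemokines passed, 4 of them without Control replicate 3.

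Over all genes, 936 were called lower and 216 higher. These were 423 and 55 with limma on log2(FPKM + 1), and 480 and 65 at a fold change of at least 2. Leaving out single libraries gave 155 to 348 higher calls (348 without Control replicate 1) and 1319 to 4276 genes by adjusted p, against 2845 with all libraries (1505 without CELF6-OE replicate 1, 1347 without CELF6-OE replicate 2, 1319 without Control replicate 2 and 4276 without Control replicate 1). In the pathway lists 25 genes were called lower, or 15 with limma on log2(FPKM + 1). The higher calls there numbered 0, or 1 with library size alone, 1 with limma on log2(FPKM + 0.1) and 0 to 1 with a library left out (1 without CELF6-OE replicate 3 and 1 without Control replicate 3). Divided by CXCL1 in place of CXCL8, the log2 ratio of CXCL2 differed by -0.16 and that of CXCL3 by -0.095. The cause of these shifts was not tested.

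Same-numbered libraries did not deviate together (correlations 0.0034, -0.0072 and -0.0643), so the numbers were not read as pairs. The replicate block changed no call of the 7 genes, and CCL20 stayed at -1.56. The lowest count of the 7 genes in any library was 223, for CCL20, and counting error was not separated from the spread between libraries.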
